A study of Mus musculus with 141 samples.

Results

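The expression of 33 complement genes was examined in 3 tissues (liver, lung, kidney) of 47 Collaborative Cross (CC) strains. The CC is a panel of recombinant inbred mice in which every strain is a different mosaic of a shared set of founder genomes. The members were chosen by name, as the genes of the complement cascade, its regulators and its receptors, and 33 of the 34 names occurred among the 24423 gene identifiers of the files. The name without a match was C1s, and its mouse counterpart C1s1 is reported beside C1ra. Each strain contributed 1 male mouse, 8 to 12 weeks old, and 1 total RNA library from each of the 3 whole tissues. No transgene, engineered deletion or test agent is named for any group. All mice had been kept in exposure chambers with clear air for 6 hours a day on weekdays over 2 weeks. The authors state that the mice were anesthetized with nembutal before sacrifice. Because each strain was 1 mouse, a difference between strains and a difference between individual animals cannot be told apart, and in whole tissue fewer cells of a type and less RNA per cell cannot be told apart either.

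Complement is a set of plasma and cell surface proteins that mark and lyse microbes and damaged cells. The classical pathway starts with C1q, the lectin pathway with mannose-binding lectins and ficolins, and the alternative pathway with the slow turnover of C3. All of them build convertases that cleave C3 and then C5, after which C5b (from the gene Hc in the mouse) assembles with C6 to C9 into the membrane attack complex. Hepatocytes are the known source of most plasma components, while C1q and properdin are known products of macrophages and other myeloid cells.

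Between strains and between tissues, levels are given as CPM, the counts of a gene relative to the library total after TMM scaling (a trimmed mean over genes that evens out differences in composition), and between genes of a tissue as TPM, which account for transcript length as well. Library totals ranged from 1738046 to 42158454 counts, and a pair of genes, the ribosomal RNA gene Rn45s and Lars2, took between 0.206% and 90.6% of a library. The TMM factor was lowest in the liver of CC033, the lung of CC015 and the kidney of CC027. A count of 3 was treated as the floor, which stands for 0.288 CPM in the median liver library, 0.321 in lung and 0.364 in kidney before scaling and covers counting error only. The tissue labels matched their markers. The summed CPM of 12 hepatocyte markers ran from 84770 to 226400 in liver, against 5.31 to 879 in lung and 128 to 3741 in kidney, and the ranges of 4 alveolar type 2 markers (3315 to 7936 in lung) and of 4 proximal tubule markers (11710 to 39120 in kidney) did not overlap with those of the other tissues.

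Only uniquely aligned reads were counted, and 10 of the 33 genes are listed with more than 1 transcript (C8a, C8b, C8g, Cfb, Cfd, Cfi, Masp2, Cd59a, Cd46 and C5ar1). Over all genes, the median TPM in liver was 0.31 for the 18311 genes with 1 transcript and 0.03 for the 6112 with more. In lung the medians were 3.26 and 0.3, and in kidney 1.14 and 0.13. For members the liver medians were 156 TPM with 1 transcript and 10.2 with more. The part of the transcript number in a low value was not tested, and it bears on every low level of these 10 genes. The share of 50-base exon windows that occur once in the genome was 53.7% for C1ra, 66.6% for C4b, 72.5% for Cr1l, 73.7% for Cd59a and 87.7% for Cd55, so reads of these genes that fit a close copy were left out, and it was at least 96.2% for the other members.

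In liver, C3 was the most abundant complement transcript, with a median of 3615 TPM over strains (1234 to 7466), followed by Vtn with 2728, Clu with 1293, C9 with 789, Serping1 with 712, Mbl2 with 686 and C4bp with 675. In lung the order was different, with C3 (561 TPM), Serping1 (523), C7 (253), Clu (212) and Hc (185) in front. In kidney Clu (127 TPM), Cr1l (76.0), Serping1 (58.1), C3 (31.6) and C2 (29.5) were in front. C8a, Cfd, Cd46 and C5ar1 were at or near 0 in all 3 tissues, with at most 3 counts in 20, 47, 47 and 47 of the 47 liver libraries.

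**Figure D1:**
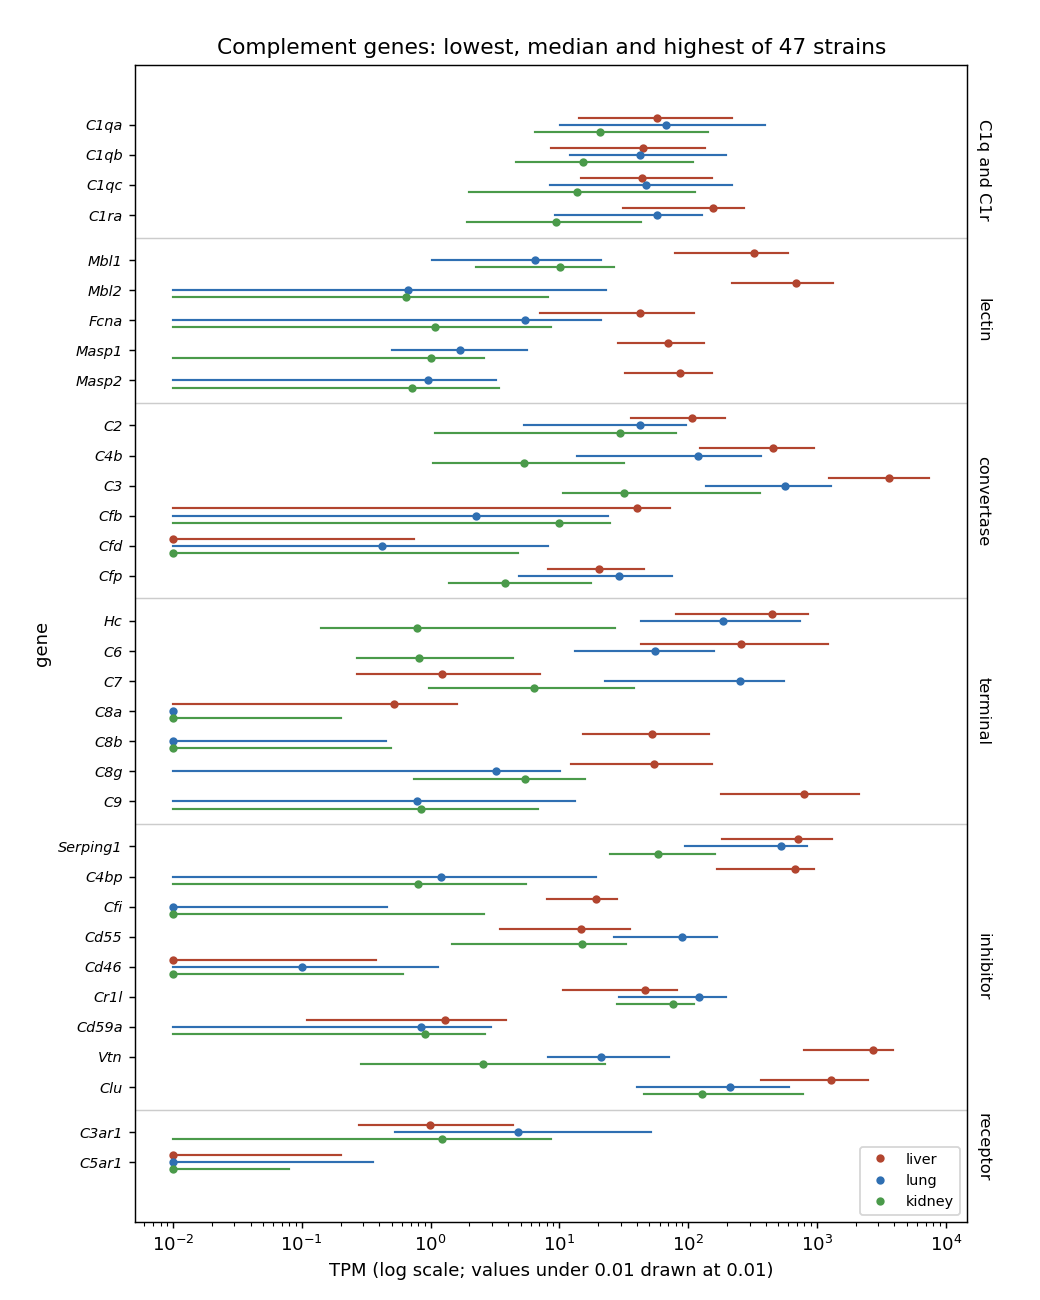
TPM (horizontal log axis; values under 0.01 drawn at 0.01) of the 33 complement genes (vertical axis, grouped by role) in liver, lung and kidney; points are the medians and lines run from the lowest to the highest of the 47 strains. In liver the median runs from 0 for Cfd, Cd46 and C5ar1 to 3615 TPM for C3, and C7 is the gene whose lung median, 253 TPM, lies farthest above its liver median, 1.22 TPM; TPM compare genes within a tissue, since Rn45s and Lars2 take different shares of the tissues' libraries.

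The tissue in which each component is transcribed was asked by comparing the tissues within mice. Of the 33 members, 28 passed the filter on low counts, and C8a, Cfd, Cd46, Cd59a and C5ar1 did not. Between liver and lung, 23 of the 28 were higher in liver, 2 in lung (C7 and Cd55) and 3 did not pass the threshold (Cfp, Cr1l and C3ar1). The threshold was q ≤ 0.1 over all genes with at least a 2-fold difference, and it was passed by 55% of the 12127 genes tested, 23.9% as higher in liver and 31% as higher in lung. Between liver and kidney, 25 members were higher in liver and C7 in kidney, with C3ar1 and Cr1l not past the threshold, against a background of 36.4% of all genes called, 15.6% as higher in liver and 20.8% as higher in kidney. Between lung and kidney, 14 members were higher in lung and 3 in kidney (C8g, Cfb and Mbl1), against 46.1% of all genes called, 25.5% as higher in lung and 20.6% as higher in kidney. The median log2 fold change of the tested members was 3.95 for liver over lung and 5.40 for liver over kidney, where the medians over all genes were -0.06 and 0.00, and it was 1.03 for lung over kidney, against 0.04. Genes with reads in liver alone entered these counts through liver, so the counts are a description.

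**Figure D2:**
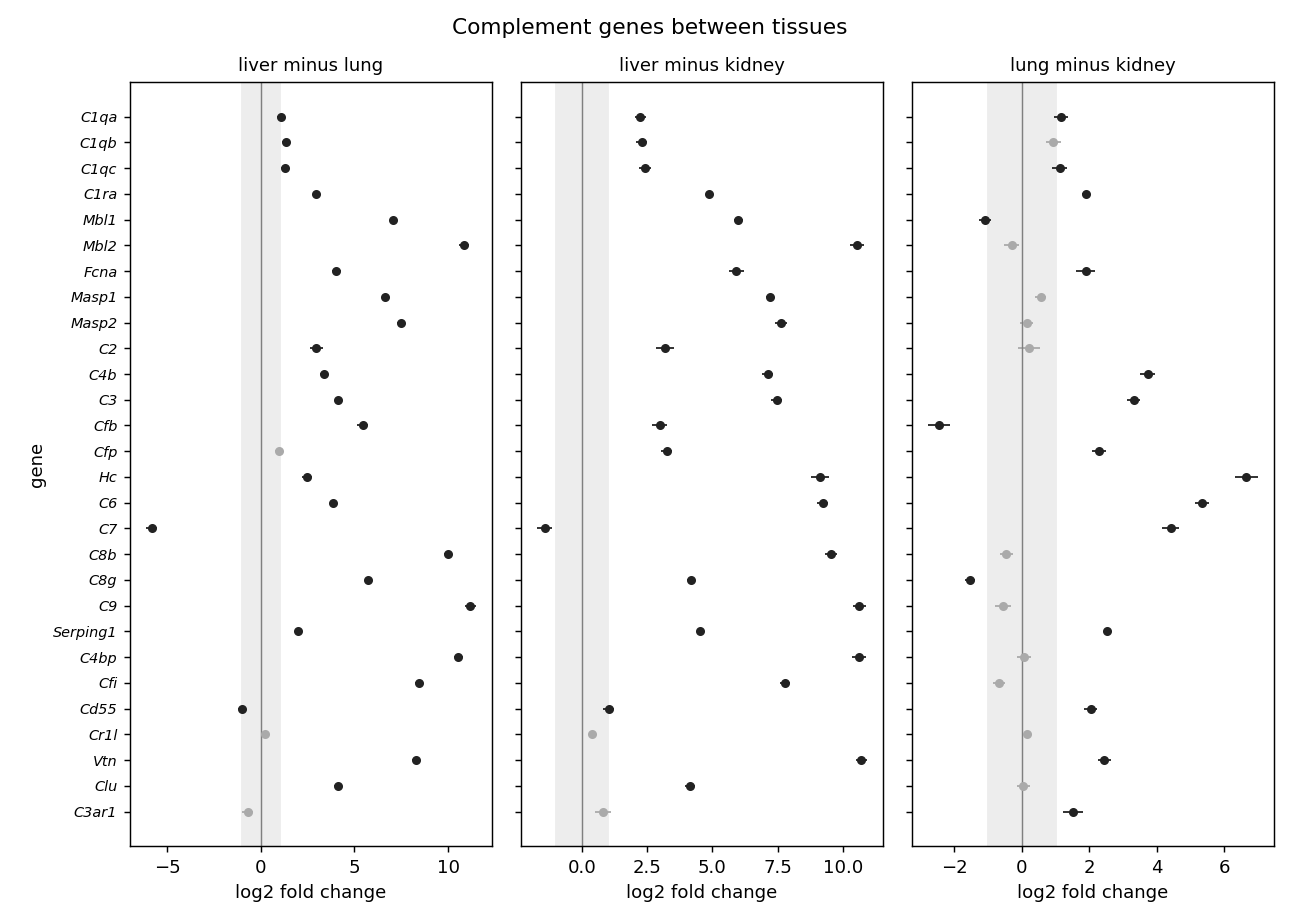
Log2 fold change (horizontal axis; bars are 95% confidence intervals from the standard errors) of the 28 tested complement genes (vertical axis) between each pair of tissues from the fit over 12127 genes; black points passed q ≤ 0.1 and the 2-fold limit, grey points did not, and the grey band marks changes under 1. In the liver comparisons nearly all points lie to the right, up to 11.19 for C9 against lung, and C7 lies at -5.83 against lung.

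The C1 complex consists of the recognition protein C1q, whose chains are encoded by C1qa, C1qb and C1qc, and the proteases C1r and C1s. C1qa had a lowest, median and highest level of 16.4, 34.4 and 190 CPM in liver, 6.82, 15.3 and 83.5 in lung and 2.35, 7.08 and 54.5 in kidney, so the ranges of all 3 tissues overlapped. C1qa, C1qb and C1qc were 2.13- to 2.56-fold higher in liver than in lung (log2 fold changes 1.09, 1.36 and 1.31, each with a standard error of 0.11; q from 2.26e-21 to 3.04e-16 in limma-voom) and 4.77- to 5.36-fold higher in liver than in kidney. This direction against lung depends on the scaling and turned in TPM without TMM, where the log2 fold changes were -0.34, -0.10 and -0.09 while the median of all genes lay at -1.21. The call of C1qa was also lost with DESeq2's size factors and in DESeq2, where its difference fell under 2-fold. Liver held 58.6% ± 11.0 (SD, n = 47 mice) of the C1qa signal summed over the 3 tissues, 61.4% of that of C1qb and 62.6% of that of C1qc. On TPM these shares were 37.5%, 40.4% and 41.2%, and those of lung, at 47.29%, 43.46% and 44.47%, were the larger ones. All such shares weigh the 3 libraries of a mouse equally, and organ mass and RNA content do not enter them. C1ra, which encodes the C1r protease, was at 58.5, 256.3 and 405 CPM in liver, 7.19, 34.4 and 70.7 in lung and 1.58, 8.44 and 52.2 in kidney. Its ranges in liver and lung overlapped only through the lowest liver value, and it was 7.85-fold higher in liver than in lung (log2 2.97 ± 0.06 SE, q = 4.63e-71).

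The lectin pathway genes were found mostly in liver. Mbl1 and Mbl2 encode the mannose-binding lectins, Masp1 and Masp2 their serine proteases, and Fcna ficolin A. Mbl2 reached 212, 422 and 719 CPM (lowest, median and highest) in liver and at most 4.01 in lung and 5.96 in kidney, with at most 3 counts in 31 lung and 28 kidney libraries. The liver range lay above both others, and the fitted fold changes, 1833 over lung and 1487 over kidney, depend on the smallest counts. Mbl1 reached 77.8, 177 and 276 CPM in liver, and its kidney level (median 2.95 CPM, 0.837 to 7.46) was 2.12-fold above that of lung (median 1.26, 0.272 to 4.49; log2 -1.09 ± 0.09 for lung over kidney, q = 1.28e-21). That last difference fell under 2-fold in 5 of the 10 other fits, DESeq2 and edgeR's quasi-likelihood test among them. Masp1 (log2 6.64 over lung) and Masp2 (7.49) were 99.8- and 179-fold higher in liver than in lung. On TPM their log2 fold changes were 4.62 and 5.39 with a pseudocount of 1, and 5.20 and 6.39 with 0.1. The medians of all genes lay at -1.21 and -1.52 there. The size of both changes thus depends on low values. Fcna was lower, with 7.51, 29.2 and 78.8 CPM in liver and medians of 1.49 in lung and 0.419 in kidney, and was 16.3-fold higher in liver than in lung. The liver held 91.4% ± 7.28 of the Fcna signal, 97.5% of Mbl1, 98.2% of Masp1, 98.8% of Masp2 and 99.8% of Mbl2. For comparison, the share of 12 hepatocyte markers ranged from 97.2% (Apob) to 99.8% (Fgb and Ahsg among others).

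C3, C4b and C2 were highest in liver and well above the floor in lung too. C3, the central component, was at 6545, 10890 and 23150 CPM in liver, 359, 627 and 1314 in lung and 23.1, 54.6 and 683 in kidney. The liver range did not overlap with the others, and the lung and kidney ranges met only through the highest kidney value. C3 was 17.6-fold higher in liver than in lung (log2 4.14 ± 0.10, q = 4.25e-62) and 10-fold higher in lung than in kidney (3.32 ± 0.10, q = 6.71e-53). C4b, which encodes C4, followed the same order, with medians of 1346, 134 and 10.5 CPM and log2 fold changes of 3.39 for liver over lung and 3.73 for lung over kidney. C2, the protease of the classical convertase, had medians of 169 CPM in liver, 24.2 in lung and 25.6 in kidney, and its difference between lung and kidney (log2 0.22 ± 0.17, q = 0.231) was smaller than the spread over strains. In the 9 strains with the lowest kidney C2, the median was 2.12 CPM in kidney and 31.8 in lung. In the others these medians were 27.6 and 20.8, and the fit averages over both groups. Cfb, the counterpart of C2 in the alternative pathway, was the convertase gene with more signal in kidney (median 9.58 CPM) than in lung (1.17), by 5.46-fold (log2 -2.45 ± 0.16 for lung over kidney, q = 9.91e-28). Its liver median was 62.9 CPM. In the 12 strains with the lowest kidney Cfb, the median was 0.265 CPM in kidney and 0.67 in lung. In the others these medians were 12.0 and 1.27, so the fold does not describe every strain. Cfp encodes properdin, which stabilises the alternative convertase, and had medians of 19.2, 10.04 and 2.05 CPM in liver, lung and kidney. Cfp was 1.94-fold higher in liver than in lung, which did not pass the fold threshold, and 4.90-fold higher in lung than in kidney. Cfd, which encodes adipsin, had at most 3 counts in 47 liver, 41 lung and 43 kidney libraries. Adipoq, an adipocyte gene, was at a median of 6.39 CPM in lung and 7.14 in kidney, with 31.5 and 54.7 at most. Of 7 adipocyte markers, Plin1 alone had a median of at most 3 counts in each of these tissues. Cfd is listed with 3 transcripts, and the part of this in its low values was not tested.

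The terminal components did not share the tissue of their highest level. Hc, which encodes C5, was at 482, 1532 and 3051 CPM in liver, 69.8, 237 and 707 in lung and 0.191, 1.55 and 56.2 in kidney. Liver and lung overlapped in part, and no kidney library reached the lowest lung value. Hc was 5.59-fold higher in liver than in lung (log2 2.48 ± 0.14, q = 5.49e-33), which fell under the 2-fold limit on TPM (log2 0.96 with a pseudocount of 1, where the median of all genes lay at -1.21), and 101-fold higher in lung than in kidney (6.65 ± 0.17, q = 2.85e-61), the largest difference between lung and kidney among the members. C6 was at 99.9, 430 and 2125 CPM in liver, 12.8, 29.6 and 92.8 in lung and 0.221, 0.818 and 4.54 in kidney. None of these ranges overlapped, and C6 was 14.6-fold higher in liver than in lung and 40.6-fold higher in lung than in kidney. C7 was highest in lung and lowest in liver, with 14.1, 145 and 351 CPM in lung, 0.688, 2.41 and 9.61 in liver and 0.886, 5.30 and 30.02 in kidney. It was 56.8-fold higher in lung than in liver (log2 -5.83 ± 0.14 for liver over lung, q = 5.06e-62), and lung held 92.3% ± 7.23 of its signal.

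C9, which forms the pore, was at 323, 859 and 2499 CPM in liver and at most 6.12 in lung and 8.34 in kidney, with at most 3 counts in 25 lung and 19 kidney libraries. It had the largest fitted change between liver and lung among the members (log2 11.19 ± 0.14, q = 1.1e-89). C8b, which encodes the beta chain of C8, was at 27.8, 65.9 and 216 CPM in liver, and every lung and kidney library had at most 3 counts, so that liver was at least 282-fold above lung and at least 186-fold above kidney in the median mouse, taken against the floor of 3 counts per library. C8g, the gamma chain and a lipocalin, differed from the other C8 chains in that kidney had a level above the floor. Its medians were 33.3 CPM in liver, 1.75 in kidney and 0.592 in lung, and lung was 2.89-fold lower than kidney (log2 -1.53 ± 0.07, q = 4.07e-37). That difference was under 2-fold on TPM (log2 -0.67 with a pseudocount of 1, where the median of all genes lay at 0.47). C8a, the alpha chain, was near the floor in liver too (0.809 CPM at the median, 2.25 at most), with 3 listed transcripts. The liver share was 99.8% for C8b and C9, 92.8% ± 3.003 for C8g, 92.6% ± 3.41 for C6, 83.3% ± 5.11 for Hc and 1.79% ± 1.10 for C7.

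**Figure D3:**
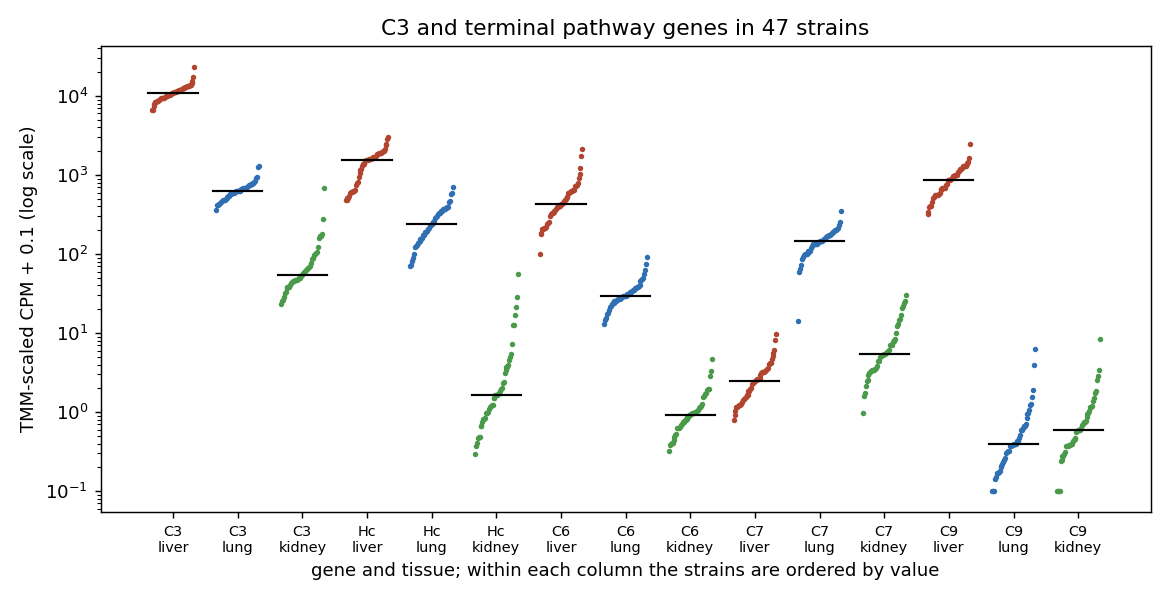
TMM-scaled CPM plus 0.1 (vertical log axis) of C3, Hc, C6, C7 and C9 in liver, lung and kidney (columns); each point is a strain, ordered by value within its column, and the black line is the median. The medians of Hc fall from 1532 in liver to 237 in lung and 1.55 in kidney, C7 is highest in lung, and C9 is near the floor outside liver.

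A few lung and kidney libraries carried more liver transcripts than the others. The lungs of CC010 and CC015 ranked first and second for Alb (403 and 371 CPM, or 0.360% and 0.597% of the liver of the same mouse) and for Fgb and F2, and they were also the highest 2 for C9, C4bp and Mbl2. The kidney of CC027 was highest for Alb (792 CPM, 0.872% of its liver), C9 (8.34 CPM, 1.23%), C4bp (7.15, 1.09%), Mbl2 (5.96, 1.09%) and Vtn (27.4, 1.06%). In the same lungs C3 was at 5.60% and 5.04% of liver, near the median of 5.63% over mice, and Hc at 21.1% and 26.2%, against a median of 19.6%, where they ranked 41 and 29 of 47 for Hc. Hc in the kidney of CC027 was at 16.7 CPM or 1.09% of its liver. The part of liver RNA in these values was not tested.

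The inhibitors fell into a liver group and a group found in all tissues. C4bp, the binding protein that dissociates the classical convertase, was at 438, 713 and 1033 CPM in liver and had medians of 0.502 in lung and 0.460 in kidney. Cfi, the protease that inactivates C3b and C4b, was at 11.6, 22.4 and 37.2 CPM in liver, and 46 lung and 45 kidney libraries had at most 3 counts, with 0.174 CPM at most in lung and 1.95 in kidney. Vtn, which encodes vitronectin and keeps the membrane attack complex out of membranes, was at 1642, 2664 and 3605 CPM in liver, 3.59, 8.57 and 20.5 in lung and 0.170, 1.25 and 27.4 in kidney, and was 5.47-fold higher in lung than in kidney. Clu, which encodes clusterin, was 17.3-fold higher in liver (median 1350 CPM) than in lung (82.8), and lung and kidney (83.4) differed by log2 0.05 ± 0.10 (q = 0.620). Serping1, the C1 inhibitor, was at 530, 771 and 1423 CPM in liver, 138, 195 and 305 in lung and 18.8, 33.4 and 106 in kidney, without overlap between the tissues, and was 4.02-fold higher in liver than in lung and 5.77-fold higher in lung than in kidney. On TPM its ranges in liver (182 to 1319) and lung (95.3 to 845) overlapped widely. The call between liver and lung was lost there (log2 0.52 with a pseudocount of 1, where the median of all genes lay at -1.21).

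Of the membrane-bound regulators, Cd55 and Cr1l were tested. Cd55, decay-accelerating factor, was at 15.4, 48.1 and 79.5 CPM in lung, 7.35, 22.7 and 43.8 in liver and 0.977, 13.0 and 24.4 in kidney. Its lung and liver ranges overlapped, and it was 2.01-fold higher in lung than in liver (log2 -1.01 ± 0.10 for liver over lung, q = 1.37e-17), which is at the edge of the fold threshold. The difference of Cd55 between liver and kidney (log2 1.03 ± 0.10) fell under the fold threshold in 6 of the 10 other fits. Its largest difference was that between lung and kidney, 4.11-fold (log2 2.04 ± 0.10, q = 1.52e-37). Cr1l, which encodes the rodent regulator Crry, varied least of the members in lung and kidney, with medians of 48.7, 41.5 and 36.8 CPM in liver, lung and kidney and differences of 1.12- to 1.31-fold that did not pass the threshold. Cd59a, which blocks C9, had medians of 1.38, 0.295 and 0.548 CPM in liver, lung and kidney, and Cd46, which in rodents is known mainly from the testis, was near 0. Of the anaphylatoxin receptors, C3ar1 was at 1.86, 3.96 and 44.3 CPM in lung, 1.001, 2.84 and 9.30 in liver and 0, 1.48 and 9.57 in kidney, and was 2.86-fold higher in lung than in kidney (log2 1.52 ± 0.15, q = 1.58e-16). C5ar1 had at most 3 counts in every library.

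Among 28 further complement genes, 26 were in the files and 20 were tested. Between liver and lung 13 of the 20 were higher in liver and 6 in lung, where 23.9% and 31% of all genes were. Between liver and kidney it was 14 and 3, against 15.6% and 20.8% of all genes. Between lung and kidney 7 were higher in lung and 4 in kidney, against 25.5% and 20.6%. These counts are a description. Among the largest changes were those of Crp and Apcs, which encode pentraxins (10.60 and 10.52 on the log2 scale for liver over lung), Crp (10.61 for liver over kidney), and Itgax and Itgb2, chains of an integrin that binds C3 fragments (4.20 and 3.93 for lung over kidney). Crp and Apcs had medians of at most 3 counts in lung and in kidney, so their fold changes depend on the smallest counts.

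The strains were then compared within each tissue, as a description without a test, since 1 mouse stood for each strain. Over members with a median of at least 10 counts, the median SD of log2 CPM over strains was 0.42 in liver (28 members), 0.54 in lung (21) and 0.85 in kidney (19), where all genes with such counts had medians of 0.38, 0.34 and 0.34. The SD was above the median of all genes for 18 members in liver, 19 in lung and 18 in kidney. Beyond the minimum of 10 counts, members and all genes were not matched on level. The part of counting error and of single outlying libraries in these SDs was not tested. In liver the SD ran from 0.26 (Vtn) to 1.57 (Cfb), in lung from 0.18 (Cr1l) to 0.87 (Fcna) and in kidney from 0.18 (Cr1l) to 1.82 (Cfb).

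Hc had no strain near 0 in liver or lung. These are transcript levels, and the C5 protein was not measured. Its lowest liver values were 482 CPM in CC059, 482 in CC049, 511 in CC035 and 518 in CC029. The highest, 3051 in CC046, was 6.34-fold above the lowest, and the widest step between neighbouring strains was 0.21 on the log2 scale, below which lay 11 strains. In lung the lowest strains were CC020 (69.8 CPM), CC068 (72.5), CC029 (81.8), CC007 (90.1) and CC059 (100), and CC033 (707) was the highest. On the rank-normalized TPM used for correlations, the order of strains was shared between both tissues, with r = 0.61 over 47 strains (permutation p = 2e-05, q = 0.00147 over all genes; Spearman 0.67, p = 1e-05) and r = 0.58 after the 2 strains most distant from the liver median were left out. In kidney 3 libraries had at most 3 counts of Hc, and CC040 (56.2 CPM), CC007 (28.6), CC039 (21.2) and CC027 (16.7) lay above the others.

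The start of Hc is shown because its transcript was abundant in liver and lung and nearly absent from kidney, together with that of C4bp, of whose signal liver held 99.8%, since both were the only members whose window held the first part of the pattern of the hepatocyte factor HNF1. Both are RefSeq windows of 300 bases, 250 before to 50 after the annotated start, on the reverse strand of GRCm38.p6, at chr2:35061363-35061662 for Hc and chr1:130661569-130661868 for C4bp. Capitals mark this match, read on either strand.
Hc: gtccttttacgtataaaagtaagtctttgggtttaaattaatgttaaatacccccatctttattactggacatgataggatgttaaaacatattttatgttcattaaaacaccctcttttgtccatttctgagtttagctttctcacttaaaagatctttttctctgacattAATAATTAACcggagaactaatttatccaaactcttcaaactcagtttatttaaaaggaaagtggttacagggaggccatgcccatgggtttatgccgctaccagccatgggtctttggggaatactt
C4bp: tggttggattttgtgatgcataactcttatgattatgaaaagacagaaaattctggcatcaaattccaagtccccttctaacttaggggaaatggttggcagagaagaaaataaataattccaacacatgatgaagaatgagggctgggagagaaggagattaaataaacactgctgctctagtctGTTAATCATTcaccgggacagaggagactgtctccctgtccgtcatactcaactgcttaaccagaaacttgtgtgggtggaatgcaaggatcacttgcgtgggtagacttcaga

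The first part of the HNF1 pattern occurred in 2 of the 25 members with a window in the table and in 0.399% of its 32851 windows. It was 1 of 14 patterns searched on both strands, and a match is a description of letters, not of binding. The full HNF1 pattern, which contains it, occurred in no member and in 0.00913% of all windows. Neither did CAAAGTCCA (HNF4, 0.475%), TTGCGCAA (C/EBP, 0.183%), TTCCNGGAA (STAT, 1.15%), the NF-kB pattern (0.155%) or a wider form of it (1.47%). The wider C/EBP pattern TTGCNNAA occurred in C1ra, C3 and C9 and in 10.8% of all windows, and TTCNNNGAA (GAS), which contains the STAT pattern, in C1ra, C7, C8a, Masp2 and Vtn and in 8.3%. The others were GAGGAAG (PU.1) in C1qc and Fcna, GGNCAAAG (HNF4) in Fcna, the interferon-stimulated response element (ISRE) in Cd46, Cd59a and Vtn, TGANTCA (AP-1) in C3ar1 and C8g, and TATAAA in C3, C3ar1, C7, Hc and Vtn, which occurred in 13.6%, 5.62%, 3.44%, 7.81% and 13.6% of all windows.

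C6 and C7 lie 173305 bases apart on chromosome 15 (chr15:4677175-4765456 and chr15:4938762-5013740 in NCBIM37). C6 was highest in CC028 and CC001 in both liver (2125 and 1718 CPM, against a median of 430) and lung (92.8 and 75.1, against 29.6), and lowest in liver in CC016 (99.9). In lung the same 2 strains were the third and second lowest for C7 (63.7 and 58.7 CPM, against 145), and CC017 stood apart below them with 14.1 CPM, 2.02 under its neighbour on the log2 scale. Over all strains C6 and C7 of lung had r = 0.08 (permutation p = 0.592, q = 0.847 over all gene pairs; Spearman 0.19, p = 0.210), which was not distinguishable from 0. C6 itself had r = 0.63 between liver and lung over 47 strains (permutation p = 2e-05, q = 0.00147; Spearman 0.62, p = 2e-05), and 0.54 after the 2 strains most distant from the liver median were left out.

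C1ra was low in a single strain in all 3 tissues. In CC013 it was at 58.5 CPM in liver, 7.19 in lung and 1.58 in kidney, while the lowest of the other 46 strains had 172, 19.6 and 4.93. C1rb, a close copy that is not a member and whose annotated span overlaps both that of C1ra and that of C1s1, was at 223, 28.7 and 5.99 CPM in CC013 (1033, 391 and 57 counts), and at most 20.6, 1.90 and 0.397 CPM in any other strain, with at most 3 counts in 42 liver, 42 lung and 45 kidney libraries. The sum of both genes in CC013 was 282, 35.9 and 7.56 CPM, which lay within the range of the other strains (172 to 405, 19.6 to 70.9 and 4.93 to 52.4) and near their medians of 258, 34.6 and 8.46. C1s1, the gene of the other C1 protease, had a count of 0 in all 3 libraries of CC013, against a median of 4.70 CPM in liver, where the next strain lay 2.08 higher on the log2 scale. Its medians were 0.514 CPM in lung, near the floor, and 0.1035 in kidney, under the floor, so a count of 0 says little there. Reads that fit both C1ra and C1rb were not counted, and whether the values of CC013 reflect the transcripts or the assignment of reads to the copies was not tested.

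**Figure D4:**
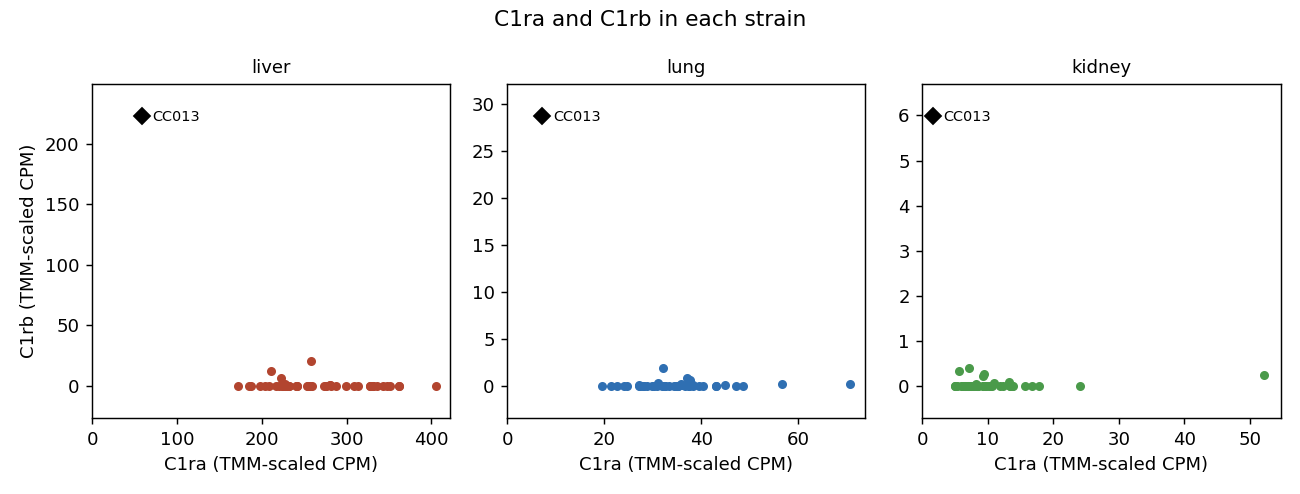
C1rb against C1ra, both as TMM-scaled CPM, in liver, lung and kidney; each point is a strain and the black diamond is CC013. CC013 is the strain with the lowest C1ra (58.5, 7.19 and 1.58) and the highest C1rb (223, 28.7 and 5.99) in every tissue.

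The sequences at the start of both genes show how alike they are. RefSeq starts the copies at different places, and the stretch that their windows share covers 149 bases, the last of the C1ra window at chr6:124512522-124512670 and the first of the C1rb window at chr6:124570180-124570328 (GRCm38.p6, forward strand). Capitals mark the bases that differ or have no partner, 9 differences and 1 unpaired base on each side, so that 93.9% of the paired bases are identical.
C1ra: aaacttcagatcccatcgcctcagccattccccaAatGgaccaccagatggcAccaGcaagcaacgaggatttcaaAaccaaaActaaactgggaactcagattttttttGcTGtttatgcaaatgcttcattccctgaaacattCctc
C1rb: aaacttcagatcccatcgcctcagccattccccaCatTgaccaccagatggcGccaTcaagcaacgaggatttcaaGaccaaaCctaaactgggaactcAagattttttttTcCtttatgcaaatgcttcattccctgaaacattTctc

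Cfb and C2 had strains with very low values, and these differed between tissues. Cfb, at chr17:34993319-34999463, was at 2.77 CPM or less in the livers of CC027, CC059, CC062 and CC068 (0, 6, 15 and 15 counts), and the next strain was at 42.4 CPM, 3.72 higher on the log2 scale. The same 4 strains were the lowest in lung (0 to 0.0876 CPM) and among the 12 lowest in kidney. In kidney 12 strains were at 0.941 CPM or less and the next at 3.69, and the other 8, CC005, CC007, CC021, CC025, CC039, CC045, CC049 and CC057, had liver values of Cfb within the range of the remaining strains. C2, at chr17:34999549-35035397, was at 0.963 to 5.06 CPM in the kidneys of 9 strains, and the next strain was at 10.6 and the median of the others at 27.6. All 9 were among the 12 with low Cfb in kidney, being those 8 and CC062, which is 9 of 9 strains for C2 and 9 of 12 for Cfb. In liver the same 9 strains had a median C2 of 171 CPM (121 to 207), against 168 in the other 38. In lung their C2 was at 27.0 to 44.4 CPM with a median of 31.8, against 20.8 in the others, and the lowest lung values of C2 were those of CC017, CC024 and CC029 (3.25 to 5.45 CPM, the next at 11.7).

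**Figure D5:**
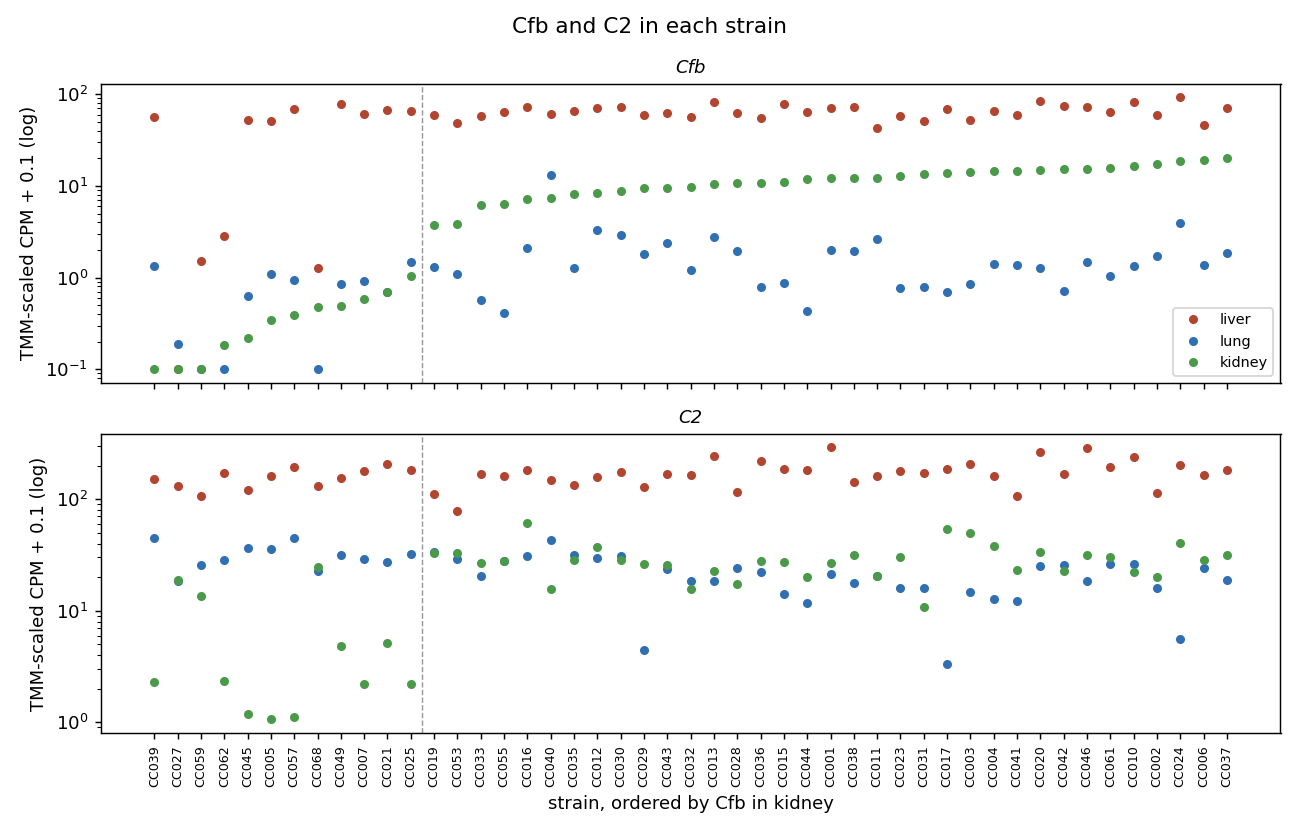
TMM-scaled CPM plus 0.1 (vertical log axes) of Cfb (top) and C2 (bottom) in liver, lung and kidney of each of the 47 strains, ordered by Cfb in kidney; the dashed line separates the 12 strains with the lowest kidney Cfb, and equal values cover each other, as those of CC059 in lung and kidney do. The 4 strains with low liver Cfb (0 to 2.77) and the 9 with low kidney C2 (0.963 to 5.06) all lie left of the line.

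Both genes are on the reverse strand, and C2 ends 85 bases before Cfb starts. These bases are shown because the 9 strains with low C2 in kidney were all among the 12 with low Cfb, and the interval is all that separates them in GENCODE vM1 (chr17:34999464-34999548, NCBIM37, reverse strand).
C2 to Cfb: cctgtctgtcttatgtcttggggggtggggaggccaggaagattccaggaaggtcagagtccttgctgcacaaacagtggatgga

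Outside the low groups, C2 and Cfb had r = 0.53 in liver over 43 strains (permutation p = 0.00032, q = 0.0351 over all gene pairs; Spearman 0.53), and 0.51 after the 2 most distant strains were left out (q = 0.0575). It was 0.11 in lung over 40 strains (permutation q = 0.793; Spearman 0.04) and 0.01 in kidney over 35 (permutation q = 0.992; Spearman 0.04). No relation was tested within the low groups, which held between 3 and 12 strains each.

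Clu was lowest in CC017 in all 3 tissues, at 913 CPM in liver, 37.3 in lung and 24.4 in kidney, with the next strain close by in each (916, 37.9 and 24.8). Cd55 was lowest in CC055 in liver (7.35 CPM, 0.86 under the next strain on the log2 scale), in CC037 in lung (15.4) and in CC042 in kidney (0.977, with CC055 next at 2.73).

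High values of several members fell together in a few libraries. How many of all genes were highest in the same libraries was not counted, so this is not known to be particular to complement genes. The kidney of CC020 was the highest for C1qa (54.5 CPM, against a median of 7.08), C1qb, C1qc, C3 (683, against 54.6), Cfp, Serping1 (106, against 33.4) and Clu (508, against 83.4). The kidney of CC016 was the highest for C1ra, C2 and C4b (75.9 CPM, against 10.5). In the kidney of CC020 the summed macrophage markers (235 CPM, median 71.6) and fibroblast markers (401, median 52.3) were also the highest and the proximal tubule markers (11710, median 25850) the lowest of the 47. The lung of CC040 was the highest for C3ar1 (44.3 CPM, against 3.96), C3 (1314), Cfb (13.0, against 1.17) and C4b (400, against 134) among other members. It was also the highest for the macrophage (1027, median 292), neutrophil (118, median 7.31) and fibroblast (903, median 429) markers. The liver of CC016 was the highest for C1qa (190 CPM), C1qb, C1qc, C1ra and Cfp (59.8, against 19.2), and for the macrophage (1524, median 427), neutrophil (32.5, median 0.548) and fibroblast (124, median 36.0) markers. The part of cell composition in these values was not tested. The liver of CC004 was the highest for C3 (23150 CPM), C4b (3094), Serping1 (1423) and Vtn (3605).

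Whether the order of strains was shared between tissues was tested for the members expressed in both. Between liver and lung, 7 of 22 members were positively correlated at q ≤ 0.1 over all genes (C1qb, C1qc, C1ra, Hc, C6, C7 and Masp1), where 12.5% of 8992 genes were. Between liver and kidney it was 7 of 17 (C1qa, C1qb, C1qc, C1ra, C8g, Mbl1 and Cd55), against 23.8% of 9076 genes, and between lung and kidney 6 of 17 (C1qa, C1qb, C1qc, C1ra, C4b and Serping1), against 15.3% of 9678. C1ra had r = 0.48, 0.66 and 0.59 in these pairs (Spearman 0.48, 0.63 and 0.59; permutation p = 0.00071, 1e-05 and 2e-05; q = 0.0144, 0.000609 and 0.00104), and after the 2 most distant strains were left out 0.36, 0.54 and 0.58. C1qc had r = 0.43, 0.60 and 0.58 (Spearman 0.40, 0.65 and 0.54; permutation p = 0.0028, 1e-05 and 2e-05), and 0.43, 0.55 and 0.56 without those strains. C3 was not correlated at this threshold, with r = 0.12 between liver and lung (Spearman 0.15, permutation q = 0.692), 0.31 between liver and kidney (Spearman 0.28, q = 0.1301) and 0.23 between lung and kidney (Spearman 0.21, q = 0.322). The calls of C1ra and Masp1 between liver and lung and of C8g and Cd55 between liver and kidney were lost after the 2 most distant strains were left out, with q between 0.141 and 0.243. There r went from 0.48 to 0.36 for C1ra, from 0.41 to 0.30 for Masp1, from 0.34 to 0.31 for C8g and from 0.37 to 0.27 for Cd55. For C1qb and C1qc between liver and lung, r fell to 0.34 (q = 0.150) and 0.37 (q = 0.101) after the share of Rn45s and Lars2 was removed by regression, and for C1qc to 0.33 (q = 0.164) without CC016, CC020 and CC040. C2 and Cfb were taken over the strains outside their low groups and passed in no pair.

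Gene pairs of known partnership, and pairs with the macrophage gene Csf1r, were compared in the same way within a tissue. There were 39 combinations of pair and tissue. The chains of C1q moved together everywhere, with r from 0.79 to 0.86 in liver, 0.79 to 0.89 in lung and 0.85 to 0.89 in kidney (each at the smallest permutation p of 1e-05). Over all pairs of genes, 2.4% were positively correlated at q ≤ 0.1 in liver, 3.56% in lung and 3.41% in kidney. C1qa was correlated with the macrophage gene Csf1r with r = 0.74 in liver (Spearman 0.75, q = 0.00994), 0.42 in lung (Spearman 0.33, q = 0.0684) and 0.60 in kidney (Spearman 0.58, q = 0.00521), and Cfp with Csf1r with r = 0.71 in liver (Spearman 0.72, q = 0.00994) and 0.42 in lung (Spearman 0.37, q = 0.0684). In kidney Cfp and Csf1r did not pass (r = 0.39, Spearman 0.41, permutation q = 0.125). C3ar1 and Csf1r did not pass in liver (r = 0.30, Spearman 0.43, permutation q = 0.342). In lung C3ar1 and Csf1r had r = 0.41 (Spearman 0.36, q = 0.0825), and 0.30 (q = 0.291) without the 2 most distant strains, so that call was lost. With the 2 most distant strains left out, r of C1qa with Csf1r was 0.71 in liver, 0.30 in lung (q = 0.290) and 0.59 in kidney, so the call in lung was lost. In liver C8b and C9 (r = 0.58, Spearman 0.58, permutation q = 0.0115), C4b and C4bp (0.50, Spearman 0.49, q = 0.0441) and C6 and C9 (0.47, Spearman 0.50, q = 0.0519) passed the threshold as well. Without the 2 farthest strains these were 0.57, 0.39 (q = 0.175) and 0.44, so the call of C4b and C4bp was lost. Hc was not distinguishable from 0 against C6 (r = -0.04 in liver and -0.06 in lung, Spearman -0.04 and -0.06, permutation q = 0.949 and 0.898) or against C3 (0.02 and -0.09, Spearman 0.02 and -0.11, q = 0.979 and 0.814). In liver the same held for Mbl1 against Mbl2 (r = -0.04, Spearman -0.04, permutation q = 0.941) and C8b against C8g (-0.06, Spearman -0.05, q = 0.9102).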

How the data were processed

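Total RNA of liver, lung and kidney of 47 CC strains was sequenced in single-end reads of 50 bases, with tissue and strain as the labels give them. The authors filtered reads by quality, removed adapters, aligned them to strain-specific pseudo-genomes of Build37 (mm9 in the submitters' processing notes) with RSEM and STAR 2.5.3a, and kept uniquely aligned reads. The expected count deposited per gene was rounded to a whole number before use (25 values were not whole), and the deposited TPM was used for levels between genes. Batches are not among the labels, and the authors' batch covariate was not used here.

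Counts were scaled by TMM in edgeR 4.0.16. A gene entered the comparison of tissues where 30% of the libraries or more exceeded 1 CPM. The fit was limma-voom (R 4.3.3, package limma 3.58.1) with the mouse as a replicate block, since a strain's 3 libraries share 1 animal, Benjamini-Hochberg adjustment over all tested genes, q ≤ 0.1 and at least a 2-fold difference. Deviations from the tissue means correlated within mice with a median of 0.166, 0.173 and 0.211 for the 3 tissue pairs, against -0.00482 to -0.00604 between mice. A simulated liver-lung comparison of 12127 genes recovered 200 of 200 changed genes with 0 false calls. Apart from those genes, changed by a log2 of 2 evenly in both directions, the simulated tissues shared their mean levels. It therefore could not show errors of the scaling between tissues.

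Correlations over strains used TMM-normalized TPM, turned into normal scores by rank with a Blom offset of 0.375, for genes above 1 TPM in over 50% of the libraries of a tissue, with 100000 two-sided permutations, whose smallest possible p is 1e-05. Their q values were adjusted over all genes or all gene pairs of a tissue, where an adjustment over the members had been planned. For gene pairs without the 2 most distant strains, the set of all gene pairs in this adjustment still held every strain. SDs of log2 CPM used a pseudocount of 0.5. Positions and unique windows came from GENCODE vM1 on NCBIM37, and start windows from RefSeq on GRCm38.p6, which held 25 of the 33 members. Python 3.11.15, scipy 1.17.1, pandas 2.3.3 and Biopython 1.88 were used.

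All members held by the files are named, and of the further complement genes the 2 with the largest change per tissue pair, of which 1 is not reported here. The members, gene lists, gene pairs and patterns were chosen with earlier results of these data known. Alternatives were DESeq2 1.42.0 size factors and test, edgeR's quasi-likelihood test, no filter, log2(TPM + 1) and log2(TPM + 0.1) in limma, no block, other thresholds, only the 2 tissues compared, and other units and transformations for correlations. Leaving out CC015, CC027 and CC033, leaving out Rn45s and Lars2, leaving out CC016, CC020 and CC040, and removing the share of Rn45s and Lars2 were chosen after seeing the data. Deposited FPKM values and chromatin accessibility were not used here.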

Additional observations from a re-analysis of the deposited data

How the results depend on the processing

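Of 840 recomputed fold changes (84 changes of members under 10 alternatives each), 794 kept their direction and side of the threshold, 19 lost the call, 7 gained it and 20 changed sign. Without the replicate block the members called stayed at 25, 26 and 17, and the block changed none of these counts. The sign changed mostly in limma on TPM without TMM, where the median of all genes itself lay at -1.21 (liver over lung), -0.72 (liver over kidney) and 0.47 (lung over kidney) with a pseudocount of 1. For liver over lung the values with pseudocounts of 1 and 0.1 were -0.34 and -0.34 for C1qa, -0.10 and -0.10 for C1qb, -0.09 and -0.09 for C1qc, -0.45 and -0.47 for Cfp and -1.25 and -1.27 for Cr1l, which was also at -0.02 with DESeq2 size factors and in DESeq2. For liver over kidney they were -0.56 and -0.57 for Cr1l and, with 1, -0.01 for C3ar1. For lung over kidney they were 0.01 and 0.08 for C8b and 0.09 and 0.21 for Mbl2, and C4bp was at -0.08 in a fit of only these 2 tissues. TPM without TMM gave 1 correlated member of 22 between liver and lung and 0 of 17 between lung and kidney, and 17 gene pairs of 20 in liver and 12 of 12 in lung, where it called 69.5% and 88.7% of all gene pairs. Without the expression filter 3 of 22 pairs in lung were called. The median liver share of the members was 85.5% on CPM and 74.2% on TPM, and 23 of 33 single shares moved by more than their SD over mice, as for Hc from 83.3% to 64.7%. The cause of these shifts was not tested. Strain and animal cannot be told apart with 1 mouse per strain, libraries left with few counts after Rn45s and Lars2 limit low genes, and only uniquely aligned reads stand behind genes with several transcripts or close copies.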
